A study of Mus musculus with 33 samples.

Results

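Runx2, Runx3, Cbfb, Sp7, Alpl, Ibsp, Mef2c and Phex are genes of bone and cartilage formation. They were taken by gene symbol from a table of 17120 genes. Of the 8 genes, 7 were in the table, and Phex was not analysed here. RNA had been sequenced from 33 mouse cultures in 11 groups of 3 libraries. All cultures came from embryonic stem cells that carry the ScxGFP reporter, a marker of tendon and fibrocartilage progenitors. The paraxial mesoderm group (PM) was collected at day 6 (D6). It followed embryoid body formation and treatment with the BMP inhibitor LDN-193189, the Wnt agonist CHIR and the retinoic acid receptor inverse agonist AGN 193109. PM cells were then cultured with TGFβ1, the hedgehog agonist SAG and FGF2. To this was added either CD1530, which activates retinoic acid receptor gamma (the tendon condition), or AGN 193109 again (the fibrocartilage condition, AGN below). Libraries of both conditions were made after 0.25 days (D6.25), 0.75 days (D6.75), 1.5 days (D7.5), 2.5 days (D8.5) and 4 days (D10) of induction. The CD1530 cultures had therefore also met AGN 193109 before D6. No culture without a retinoid ligand was among these groups, and the ligands were not used at equal concentrations, so a difference between CD1530 and AGN cannot be assigned to either ligand. The form of the PM culture is uncertain, since the paper describes embryoid bodies for the first days and, for its gels, 2D culture up to D6. Time, medium and any change in the form of culture cannot be told apart in a comparison with PM.

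Runx proteins bind DNA as partners of Cbfb, a subunit that itself does not contact DNA and that stabilizes the complex. Runx2 is needed for osteoblast formation and for the maturation of chondrocytes, and the zinc finger factor Sp7 (osterix) acts after Runx2 in the osteoblast lineage. Mef2c is a MADS box factor of muscle, endothelium and hypertrophic cartilage. Alpl (tissue-nonspecific alkaline phosphatase) hydrolyses pyrophosphate and so permits mineral to form, and Ibsp (bone sialoprotein) is a mineral-binding matrix protein. Alpl is also a classical marker of pluripotent stem cells.

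The libraries held 17116084 to 22775275 counts, except AGN replicate 1 at D8.5, which held 38120841 counts. No columns were identical, and the counts of any 2 replicates differed beyond sampling noise (lowest chi-square per gene 1.59). CD1530 replicate 1 at D6.75 stood apart, with a chi-square per gene of 20.62 against replicate 2 and 21.88 against replicate 3. No other pair of replicates exceeded 4.87. The study describes the replicates as independent samples, but which of its stem cell lines gave which replicate is not in the labels. Levels are given as CPM (counts-per-million) after TMM scaling, which corrects for library composition, as mean ± SD of 3 libraries. Differences are log2 fold changes with their standard error (SE), tested across all 17120 genes with edgeR's quasi-likelihood F test. Adjusted p-values are those of Benjamini and Hochberg, and a gene is said to be called at an adjusted p under 0.05. The labels were checked against marker genes. All 5 paraxial mesoderm markers (Tbx6, Msgn1, T, Meox1, Cdx1) were counted in PM, with a summed level of 128 to 137 CPM. That sum did not set PM apart, since it was 143 to 146 CPM in CD1530 and 124 to 135 CPM in AGN at D8.5. Tbx6, Msgn1, T and Cdx1 had their highest means in PM (9.56, 3.38, 79.0 and 33.4 CPM), while Meox1 stood at 5.91 CPM in PM and at 131 CPM in CD1530 at D8.5. In PM, 10 markers of pluripotent cells summed to 3940 to 4070 CPM. The 5 tendon markers summed to 10900 to 11500 CPM in CD1530 and 14200 to 15200 CPM in AGN at D10. Most of that sum was Col1a1, at 9790 ± 320 and 11500 ± 520 CPM, which was not called. Of the 5, 0 were called higher in CD1530 at D10, where 22.7% of all genes were, and 3 lower, where 24% were. The tendon markers thus did not set the tendon condition above the fibrocartilage condition. The 5 cartilage markers summed to 235 to 241 CPM in CD1530 and 3080 to 3210 CPM in AGN. These are levels of whole cultures, in which fewer cells of a type and less RNA per cell cannot be told apart.

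At D10 all 7 genes differed between the conditions, in opposite directions. Runx2, Runx3, Cbfb, Sp7 and Mef2c were higher in AGN, and the mineralization and matrix genes Alpl and Ibsp were higher in CD1530. Thus 2 of 7 were called higher in CD1530, where 22.7% of all genes were, and 5 of 7 lower, where 24% of all genes were, so that 7 of 7 stood against a background of 46.6%. In all 7 genes the 3 libraries of CD1530 did not overlap the 3 of AGN, as was so for 57% of all genes. The median absolute log2 fold change was 1.25 over the 7 genes and 0.22 over all genes.

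**Figure D1:**
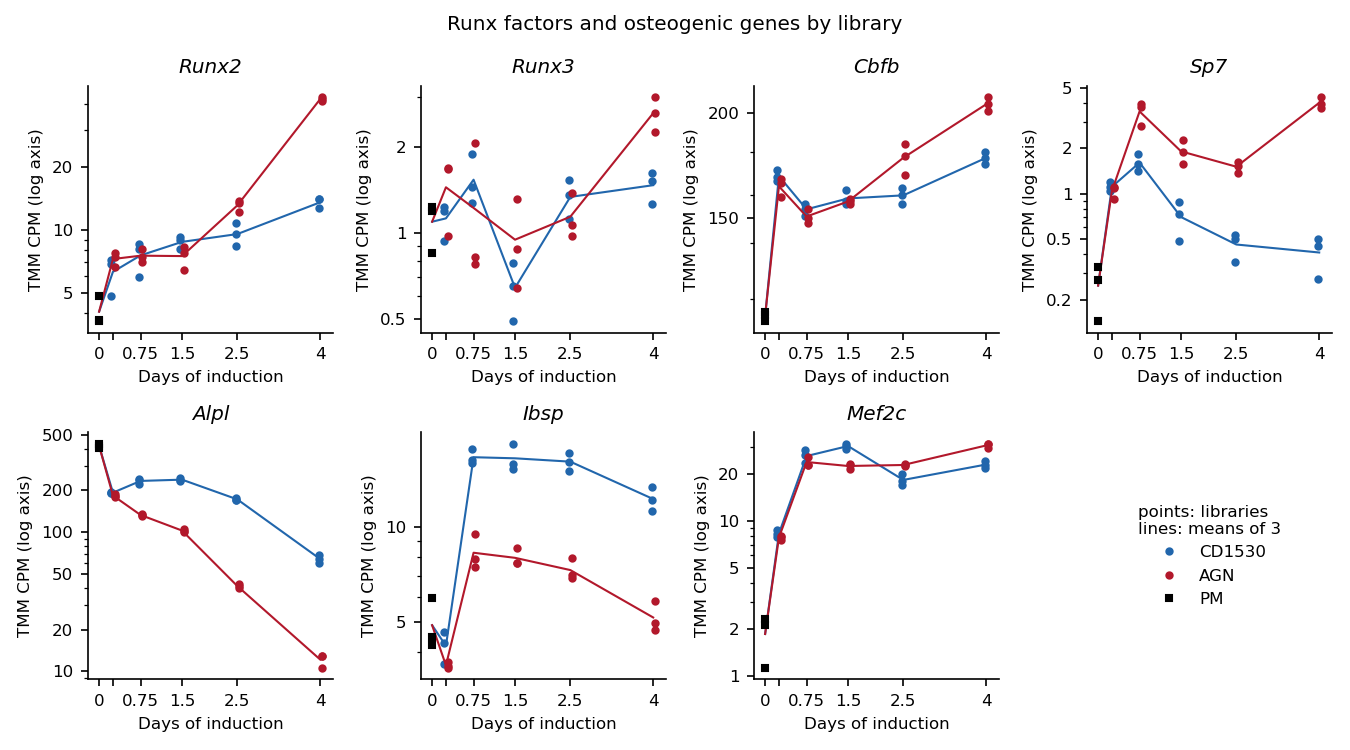
Level of each gene in every library, in CPM on a log axis with a separate range for each gene, against days of induction. Points are libraries (black squares PM, blue CD1530, red AGN) and lines join means of 3. Alpl and Ibsp lie higher in CD1530 from 0.75 days on, Sp7 lies higher in AGN over the same period, and Runx2 separates at 2.5 and 4 days.

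The genes departed from each other at different times. At D6.25 none of the 7 was called, where 1.92% of all genes were. In edgeR 0 of 7 had an unadjusted p under 0.05, and DESeq2 also called 0. The intervals at D6.25 were not narrow for the weakly counted genes. The 95% interval of the log2 fold change ran from -0.95 to 0.23 for Runx3 and from -0.40 to 0.59 for Sp7, against -0.03 to 0.11 for Cbfb and -0.01 to 0.15 for Alpl. The CD1530 libraries lay above the AGN libraries in Alpl alone at D6.25, a separation seen in 21.1% of all genes. At D6.75, 3 of 7 were called (Sp7, Alpl and Ibsp) against 18% of all genes, and these 3 were also the ones whose libraries did not overlap, against 26.3% of all genes. Mef2c joined them at D7.5, giving 4 of 7 called against 26.9%, and the same 4 without overlap against 42.5%. At D8.5 Runx2 and Cbfb were added, giving 6 of 7 called against 40%, and the same 6 without overlap against 51.4%. Runx3 was called at D10 alone.

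**Figure D2:**
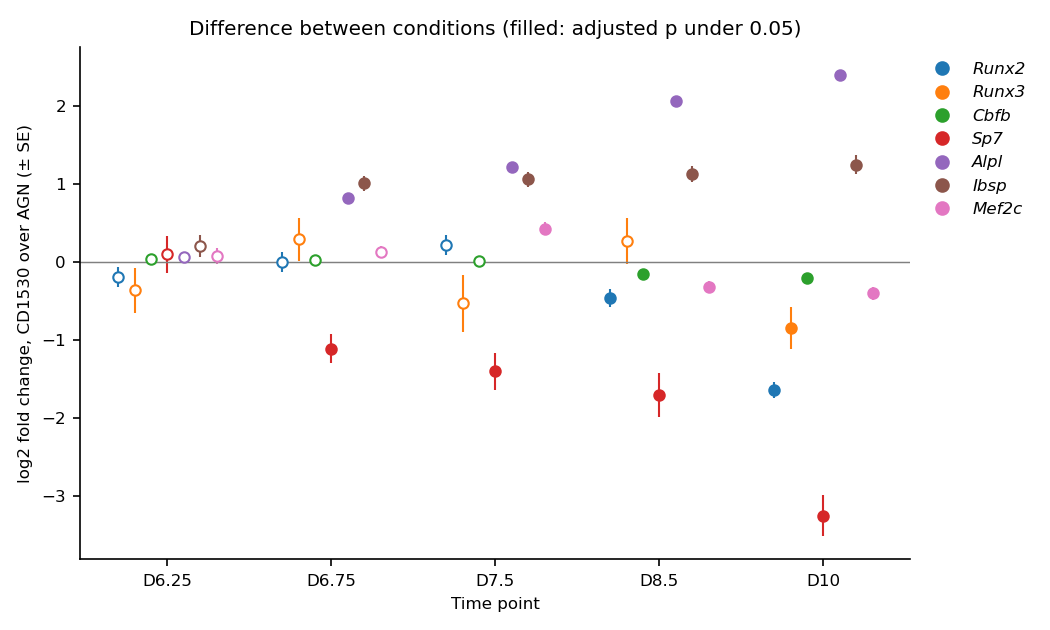
Log2 fold change of CD1530 over AGN at each time point for the 7 genes, with bars of 1 SE. Filled points are called at an adjusted p under 0.05. Alpl and Ibsp are above 0 from D6.75, Sp7 is below 0 from D6.75, Runx2 is below 0 at D8.5 and D10, and Mef2c is above 0 at D7.5 and below 0 at D8.5 and D10.

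Runx2 (ENSMUSG00000039153) lies on chromosome 17 from 44495987 to 44814797 on the minus strand of GRCm38. Its exons overlap those of the antisense gene Runx2os1, and since the strand setting of the counting is not given in the sources used here, reads of the pair cannot be told apart. In PM the 3 libraries had 4.83, 3.73 and 3.66 CPM of Runx2. At D10 they had 12.7, 14.0 and 14.0 CPM in CD1530 and 43.1, 41.4 and 42.2 CPM in AGN. Every D10 library was above every PM library, and the lowest AGN library at D10 was far above the highest CD1530 library. The log2 fold change of CD1530 over AGN at D10 was -1.64 ± 0.10 (adjusted p = 1.4e-17), a 3.12-fold difference, larger in size than that of 94.3% of all genes.

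Both conditions followed a like course in Runx2 up to D7.5 and parted afterwards. From PM to D6.25 Runx2 rose by 0.64 ± 0.15 (log2) in CD1530 and by 0.83 ± 0.14 in AGN. Levels were then 7.56 ± 1.4 and 7.54 ± 0.56 CPM at D6.75, and 8.78 ± 0.60 and 7.51 ± 0.96 CPM at D7.5, with overlapping libraries at both times. At D8.5 they were 9.56 ± 1.2 CPM in CD1530 and 13.1 ± 0.82 CPM in AGN, with no overlap (log2 fold change -0.46 ± 0.11, adjusted p = 0.00116). From D8.5 to D10 Runx2 rose in both, by 0.50 ± 0.12 in CD1530 and by 1.68 ± 0.10 in AGN. The test of that difference in steps gave -1.18 ± 0.15 (adjusted p = 9.1e-08). By D10 the mean was 333% of the PM mean in CD1530 and 1040% in AGN. In the order of the 11 groups, AGN at D10 stood alone at the top and PM alone at the bottom, and the 7 groups from CD1530 at D8.5 down to CD1530 at D6.25 overlapped from neighbour to neighbour.

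Runx3 (ENSMUSG00000070691, chromosome 4, 135120652 to 135177990, plus strand) is known for roles in sensory neurons, blood cells and, with Runx2, cartilage. It was the least expressed of the Runx genes, with 9 to 48 counts per library. At D10 the libraries had 1.52, 1.27 and 1.63 CPM in CD1530 and 3.00, 2.65 and 2.26 CPM in AGN. Thus every AGN library was above every CD1530 library. The log2 fold change was -0.84 ± 0.27 (adjusted p = 0.00989), and without AGN replicate 1 it was -0.74 with an adjusted p of 0.05, just over the threshold. Between PM and D8.5 the group means lay between 0.643 and 1.54 CPM. In CD1530 Runx3 fell from D6.75 to D7.5 by 1.24 on the log2 scale (SE 0.32) and rose by 1.04 ± 0.34 to D8.5, the latter no longer called without CD1530 replicate 1 at D7.5 or replicate 2 at D8.5 (adjusted p = 0.0609 and 0.068). In AGN at D6.75, replicate 1 had 2.07 CPM and the others 0.826 and 0.782 CPM, and without replicate 1 Runx3 was called higher in CD1530 there (log2 fold change 0.93, adjusted p = 0.0376). From D8.5 to D10 Runx3 rose by 1.24 ± 0.27 in AGN (adjusted p = 0.000138), and in CD1530 the step was 0.13 ± 0.30 (adjusted p = 0.727). In the order of the 11 groups AGN at D10 stood apart at the top, and all neighbours below it overlapped.

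Cbfb (ENSMUSG00000031885, chromosome 8, 105170674 to 105217989, plus strand) was the most evenly expressed gene of the set. Its libraries had 115, 113 and 116 CPM in PM, and at D10 177, 180 and 174 CPM in CD1530 and 205, 209 and 201 CPM in AGN. The groups did not overlap at D10, yet the difference was small, with a log2 fold change of -0.21 ± 0.03 (adjusted p = 1.32e-06), a 1.16-fold difference. Its size exceeded that of 48.5% of all genes, with SDs between replicates of 2.7 CPM in CD1530 and 3.9 CPM in AGN. At D8.5 the difference was -0.15 ± 0.03 (adjusted p = 0.000406). The main rise was the first, from PM to D6.25, by 0.55 ± 0.03 in CD1530 and 0.51 ± 0.03 in AGN. Per kilobase of exon, which allows a rough comparison between genes, Cbfb stood at 32.9 CPM per kb in PM and at 50.8 (CD1530) and 58.9 (AGN) CPM per kb at D10. The length used for each gene was that of all its annotated exons together, and which isoforms were expressed was not tested. The Runx genes together, Runx1 included, reached 1.51 CPM per kb in PM and 9.51 and 10.4 CPM per kb at D10. The level of Cbfb mRNA was thus above the sum of the Runx mRNAs in each of these groups.

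Runx1, the remaining Runx gene and best known from blood formation, was not among the 8 genes but is given for the balance of the family. At D10 it stood at 92.4 ± 3.2 CPM in CD1530 and 60.6 ± 2.0 CPM in AGN, opposite in direction to Runx2 and Runx3 (log2 fold change 0.61 ± 0.06, adjusted p = 2.07e-11). It had been lower in CD1530 at D6.25 (-0.27 ± 0.07) and at D6.75 (-0.66 ± 0.07). On the scale of CPM per kb, Runx1 made up 80.8% ± 0.43 of the Runx sum in CD1530 at D10, Runx2 16.1% ± 0.72 and Runx3 3.09% ± 0.33. In AGN the shares were 48.7% ± 0.75, 46.2% ± 1.1 and 5.08% ± 0.58. The sum itself was 9.51 ± 0.34 CPM per kb in CD1530 and 10.4 ± 0.28 CPM per kb in AGN, so the conditions differed far more in the make-up of the family than in its total.

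**Figure D3:**
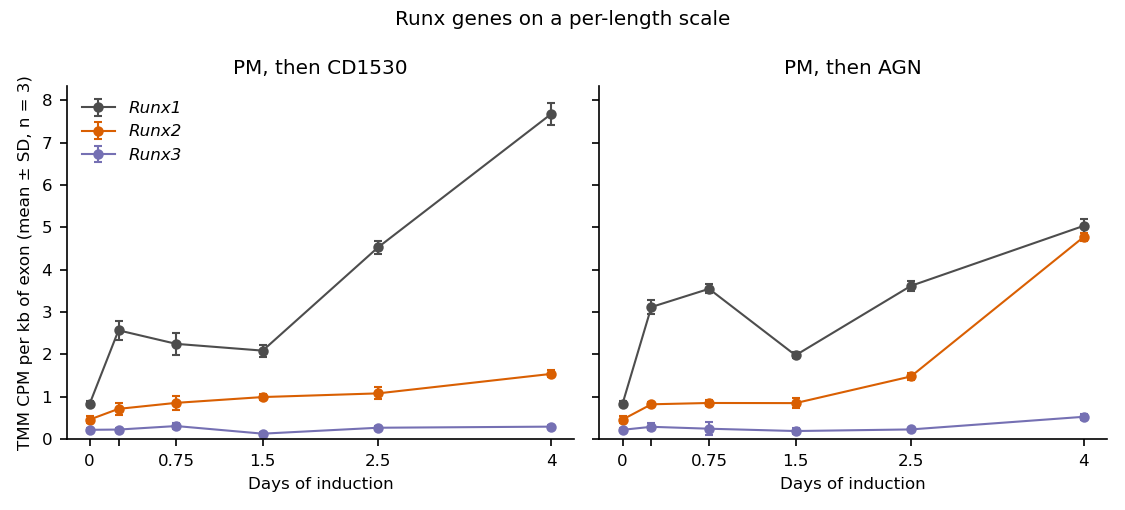
Levels of Runx1, Runx2 and Runx3 in CPM per kb of exon (mean ± SD of 3 libraries) against days of induction, from PM into CD1530 (left) and into AGN (right). In AGN at 4 days Runx2 stands at 4.78 and Runx1 at 5.04 CPM per kb, and in CD1530 they stand at 1.54 and 7.68.

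Sequences before and around the gene starts were read from RefSeq on GRCm38.p6, which had windows for 6 of the 7 genes and none for Sp7. Each window spans 250 bases before and 50 after an annotated start. The letters TGTGGT, the core that Runx factors bind, or ACCACA on the other strand were in 16.8% of 32851 windows. The first windows of Runx1, Runx2 and Runx3 share a closer feature, in which ACCACA occurs in tandem with a spacer of 2 bases. The pair was in 4 windows, or 0.012%, and the remaining 1 was that of Gm16225, whose position is not given here. The pair began 28 bases after the start in Runx1 (chr16:92826025-92826324, minus strand), 23 bases after it in Runx2 (chr17:44814578-44814877, minus strand) and 134 bases before it in Runx3 (chr4:135120395-135120694, plus strand). It is shown because these genes have it in common, although they differed between the conditions in opposite directions. The capitals mark the Runx letters, 5′ to 3′ on the gene's strand.
Runx1: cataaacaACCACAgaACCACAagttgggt
Runx2: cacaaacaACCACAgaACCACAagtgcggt
Runx3: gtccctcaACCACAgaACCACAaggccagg
The run common to all 3 genes was 18 bases long, and Runx1 and Runx2 shared 22 bases. Runx2 had a further single ACCACA upstream, next to AGGTCA, the core motif of retinoic acid receptors (AGGTCA or TGACCT is in 16.3% of windows). The 250 bases before the Runx2 start (chr17:44814628-44814877, minus strand) are shown with both in capitals.
Runx2: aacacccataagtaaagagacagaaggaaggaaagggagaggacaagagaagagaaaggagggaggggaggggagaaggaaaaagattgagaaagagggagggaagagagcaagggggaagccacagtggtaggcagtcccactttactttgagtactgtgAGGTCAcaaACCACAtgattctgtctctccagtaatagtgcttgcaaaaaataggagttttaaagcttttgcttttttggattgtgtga
Whole retinoid response elements, with direct repeats of that core 5 or 2 bases apart, were in none of the members' windows, and in 0.0974% and 0.268% of all windows. A match describes letters only, and binding was not measured.

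Sp7 (ENSMUSG00000060284, chromosome 15, 102356606 to 102367182, minus strand) showed the widest separation of the set. It was counted 3 to 7 times per library in PM, 5 to 10 times in CD1530 at D10 and 62 to 72 times in AGN at D10. At D10 the libraries had 0.505, 0.275 and 0.450 CPM in CD1530 and 3.94, 4.34 and 3.68 CPM in AGN. All AGN libraries were therefore far above all CD1530 libraries, with a log2 fold change of -3.25 ± 0.26 (adjusted p = 3.44e-14), a 9.54-fold difference that exceeded 98.5% of all genes in size.

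The course of Sp7 had an early peak in both conditions and a late rise in AGN. From PM to D6.25 it rose by 2.15 ± 0.33 in CD1530 and by 2.05 ± 0.34 in AGN, to 1.11 ± 0.077 and 1.04 ± 0.10 CPM. At D6.75 it had reached 1.61 ± 0.21 CPM in CD1530, where the step was not called (adjusted p = 0.0529, but 0.0451 without CD1530 replicate 2 at D6.75 and 0.0429 without the robust option of edgeR), and 3.5 ± 0.60 CPM in AGN, where it was (1.73 ± 0.21, adjusted p = 4.78e-09). The conditions then differed at every later time, with log2 fold changes of -1.11 ± 0.19 (D6.75), -1.40 ± 0.24 (D7.5) and -1.70 ± 0.28 (D8.5). From D6.75 to D7.5 Sp7 fell in both. From D8.5 to D10 it rose by 1.38 ± 0.19 in AGN and stood at -0.17 ± 0.38 in CD1530 (adjusted p = 0.739), and the steps differed by -1.55 ± 0.43 (adjusted p = 0.00546). In CD1530 at D10 Sp7 was not called against PM (0.72 ± 0.42, adjusted p = 0.136). Sp7 and Runx2 were thus both higher in AGN at D10, but Sp7 had separated at D6.75, when the 95% interval for Runx2 was -0.25 to 0.25. The cartilage markers were higher in AGN over the same period, with 4 of 5 lower in CD1530 at D6.75, 3 of 5 at D7.5 and 5 of 5 at D8.5 and D10, none of them at 3 counts or fewer throughout a group. The shares of all genes called in either direction were 18%, 26.9%, 40% and 46.6% at these times. The summed level of the cartilage markers was 413 to 433 CPM in CD1530 and 1150 to 1190 CPM in AGN at D8.5. The part of cartilage cells in the levels of Runx2 and Sp7 was not tested.

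Mef2c (ENSMUSG00000005583, chromosome 13, 83504034 to 83667080, plus strand) rose in both conditions and changed sides between them. The PM libraries had 2.34, 2.13 and 1.13 CPM. By D6.75 the means were 26.0 ± 2.5 CPM in CD1530 and 23.9 ± 1.5 CPM in AGN, which is 1390% and 1280% of the PM mean. At D7.5 the libraries had 30.3, 31.3 and 29.1 CPM in CD1530 and 21.5, 22.9 and 23.1 CPM in AGN, so that CD1530 was higher without overlap (0.43 ± 0.08, adjusted p = 2.29e-05). At D8.5 they had 20, 17 and 17.9 CPM in CD1530 and 23.2, 22.4 and 22.9 CPM in AGN, and the order was turned (-0.32 ± 0.08, adjusted p = 0.0013). The turn came from CD1530, where Mef2c fell by 0.73 ± 0.08 from D7.5 to D8.5 (adjusted p = 6.31e-10), while the step in AGN was 0.02 ± 0.08 (adjusted p = 0.853). At D10 AGN was still the higher (-0.40 ± 0.08, adjusted p = 3.69e-05), and the interaction of condition with time was called (adjusted p = 8.2e-08).

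Markers of cell types that also use Mef2c differed between the conditions as well, though not always with it. The 10 endothelial and blood markers (Pecam1, Cdh5, Kdr, Tek, Emcn, Cldn5, Tal1, Gata1, Itga2b and Ptprc) summed to 463 to 499 CPM in CD1530 and 287 to 302 CPM in AGN at D6.75, with 7 of 10 called higher in CD1530 and 0 lower, when Mef2c itself was not called (0.13 ± 0.08, adjusted p = 0.274). At D7.5 the sums were 446 to 463 CPM and 265 to 294 CPM, with 6 of 10 higher in CD1530 and 1 lower. At D8.5, when Mef2c was lower in CD1530, the sums were 266 to 275 CPM and 219 to 233 CPM, with 4 of 10 markers higher in CD1530 and 1 lower. The sums at D10 were 155 to 168 CPM and 145 to 155 CPM. At that time 2 of 10 were higher and 3 lower in CD1530, and Gata1 had at most 3 counts in each CD1530 library. Of all genes, 18% were called in either direction at D6.75, 26.9% at D7.5, 40% at D8.5 and 46.6% at D10. The 7 muscle markers in the table (Myog, Myod1, Des, Ttn, Actc1, Tnnt2 and Nkx2-5) summed to only 10.3 to 13.2 CPM in CD1530 and 11.1 to 13.0 CPM in AGN at D10, with Myod1 at no more than 3 counts per library in both and Nkx2-5 likewise in AGN. The part of these cells in the level of Mef2c was not tested. The neuron and neural crest markers, 7 in the table (Sox10, Neurog1, Ntrk3, Isl1, Elavl3, Tubb3 and Pou4f1), mark cells that also use Runx3 and Mef2c. At D7.5, when Mef2c was higher in CD1530, they summed to 69.2 to 71.2 CPM in CD1530 and 50.7 to 52.7 CPM in AGN. At D8.5, when Mef2c was lower in CD1530, the sums were 65.1 to 71.4 CPM and 41.1 to 44.5 CPM. At D10 they were 75.5 to 79.8 CPM in CD1530 and 18.9 to 21.3 CPM in AGN, where Neurog1 had at most 3 counts per library. That is the direction opposite to that of Runx3 and Mef2c at D10. The part of these cells in the levels of Runx3 and Mef2c was not tested.

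Alpl (ENSMUSG00000028766, chromosome 4, 137741733 to 137796384, minus strand) was highest in PM and fell in both conditions, further in AGN. The PM libraries had 420, 434 and 403 CPM. At D10 the CD1530 libraries had 68.2, 64.0 and 60.6 CPM and the AGN libraries 10.6, 12.9 and 13.0 CPM. The difference at D10 was 2.40 ± 0.06 (adjusted p = 2.73e-31), 5.28-fold, although CD1530 itself was at 15.4% of the PM mean and AGN at 2.9%.

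Alpl fell in both conditions at 3 of the 5 steps, and between D6.25 and D6.75 it changed in opposite directions. From PM to D6.25 Alpl fell by 1.12 on the log2 scale in CD1530 and by 1.19 in AGN (SE 0.04 in each). From D6.25 to D6.75 it rose by 0.28 ± 0.04 in CD1530 (adjusted p = 2.33e-07) and fell by 0.47 in AGN (SE 0.04, adjusted p = 2.07e-12). The difference between conditions was 0.82 ± 0.04 (D6.75), 1.22 ± 0.04 (D7.5) and 2.07 ± 0.05 (D8.5), so that it was larger at each later time. From D7.5 to D8.5 Alpl fell by 0.47 in CD1530 and by 1.32 in AGN. From D8.5 to D10 it fell by 1.42 in CD1530 and by 1.76 in AGN, and these steps differed by 0.33 ± 0.08 (adjusted p = 0.000843). In the order of the 11 groups, no neighbours overlapped other than CD1530 at D7.5 and D6.75.

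Pluripotent cells also express Alpl, and the sum of their 10 markers (Pou5f1, Nanog, Zfp42, Esrrb, Dppa5a, Klf4, Utf1, Tdgf1, Dppa3 and Sox2) is given beside it. The sum was 3940 to 4070 CPM in PM, 1930 to 2010 CPM in CD1530 at D6.25 and 1940 to 1980 CPM in AGN at D6.25. It was 2050 to 2290 CPM in CD1530 and 1840 to 1920 CPM in AGN at D6.75, and 2090 to 2100 CPM and 1950 to 2050 CPM at D7.5. At D8.5 it was 1200 to 1230 CPM and 1260 to 1300 CPM. At D10 it was 360 to 374 CPM in CD1530 and 580 to 598 CPM in AGN, with 4 of 10 markers called higher and 5 lower in CD1530. The sum was thus higher in the condition with more Alpl at D6.75 and D7.5, and higher in the condition with less Alpl at D8.5 and D10. Its markers were divided at each of these times. In CD1530, 4 of 10 were called higher and 2 lower at D6.75, 4 and 5 at D7.5, and 5 and 5 at D8.5. The shares of all genes called in either direction were 18%, 26.9% and 40% at these times, and 46.6% at D10. None of the 10 was at 3 counts or fewer throughout a group. The part of pluripotent cells in the fall of Alpl from PM was not tested.

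Alpl has separate annotated starts. The window at the upstream start, whose 250 preceding bases lie at chr4:137796385-137796634 (minus strand), holds the GC box GGGCGG or CCGCCC, which is in 35.7% of all windows. Shown are these bases, with 2 overlapping GC boxes in capitals, and those before the downstream start (chr4:137766476-137766725, minus strand), with AGGTCA in capitals, since the counts do not separate the starts.
Alpl upstream start: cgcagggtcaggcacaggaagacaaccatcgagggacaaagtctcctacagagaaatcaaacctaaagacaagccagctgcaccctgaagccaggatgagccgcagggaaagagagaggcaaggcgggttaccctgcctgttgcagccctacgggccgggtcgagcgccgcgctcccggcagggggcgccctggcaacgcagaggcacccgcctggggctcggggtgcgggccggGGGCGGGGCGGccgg
Alpl downstream start: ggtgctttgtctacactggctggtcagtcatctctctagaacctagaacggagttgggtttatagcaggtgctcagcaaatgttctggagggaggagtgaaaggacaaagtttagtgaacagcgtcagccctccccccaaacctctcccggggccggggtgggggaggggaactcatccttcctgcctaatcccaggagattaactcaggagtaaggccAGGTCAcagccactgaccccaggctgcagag

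Ibsp (ENSMUSG00000029306, chromosome 5, 104299171 to 104311469, plus strand) rose between D6.25 and D6.75 in both conditions. It was 2.01-fold higher in CD1530 at D6.75 and 2.38-fold higher at D10. At D6.25 its libraries had 3.66, 4.63 and 4.26 CPM in CD1530 and 3.71, 3.56 and 3.61 CPM in AGN. At D6.75 they had 16.0, 17.7 and 16.3 CPM in CD1530 and 7.93, 9.47 and 7.43 CPM in AGN, and the groups no longer overlapped. The step was 1.99 ± 0.11 in CD1530 and 1.19 ± 0.13 in AGN. At this and the later times the log2 fold changes of CD1530 over AGN were 1.01 ± 0.10 (D6.75), 1.06 ± 0.10 (D7.5) and 1.13 ± 0.10 (D8.5), and at D10 it was 1.25 ± 0.12 (adjusted p = 1.9e-11). Ibsp fell from D8.5 to D10 in both, by 0.39 in CD1530 and by 0.52 in AGN on the log2 scale, and the steps were not called different (0.12 ± 0.16, 95% interval -0.21 to 0.45). At D10 Ibsp in AGN was back at 5.15 ± 0.60 CPM, which was not called against the 4.87 ± 0.95 CPM of PM (0.08 ± 0.14, adjusted p = 0.619). The window at its start held none of the motifs searched.

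Ibsp lies between the genes of the matrix phosphoproteins Dmp1 and Spp1 on chromosome 5. Dmp1 (dentin matrix protein, 104202613 to 104214102) is 85069 bases away and Spp1 (osteopontin, 104435118 to 104441050) is 123649 bases away. Spp1 was the gene whose pattern over the groups was most like that of Ibsp. It rose from 342 ± 6.4 to 839 ± 73 CPM between D6.25 and D6.75 in CD1530 and from 339 ± 6.3 to 547 ± 14 CPM in AGN, and at D10 it was higher in CD1530 by 0.79 ± 0.04 (adjusted p = 8.51e-20). Dmp1, on the other side, had another course. It differed by 0.61 ± 0.16 at D6.75, by -0.43 ± 0.13 at D8.5 and by 0.51 ± 0.12 at D10, and its highest level was at D10, with 17.3 ± 0.28 CPM in CD1530 and 12.1 ± 2.3 CPM in AGN.

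**Figure D4:**
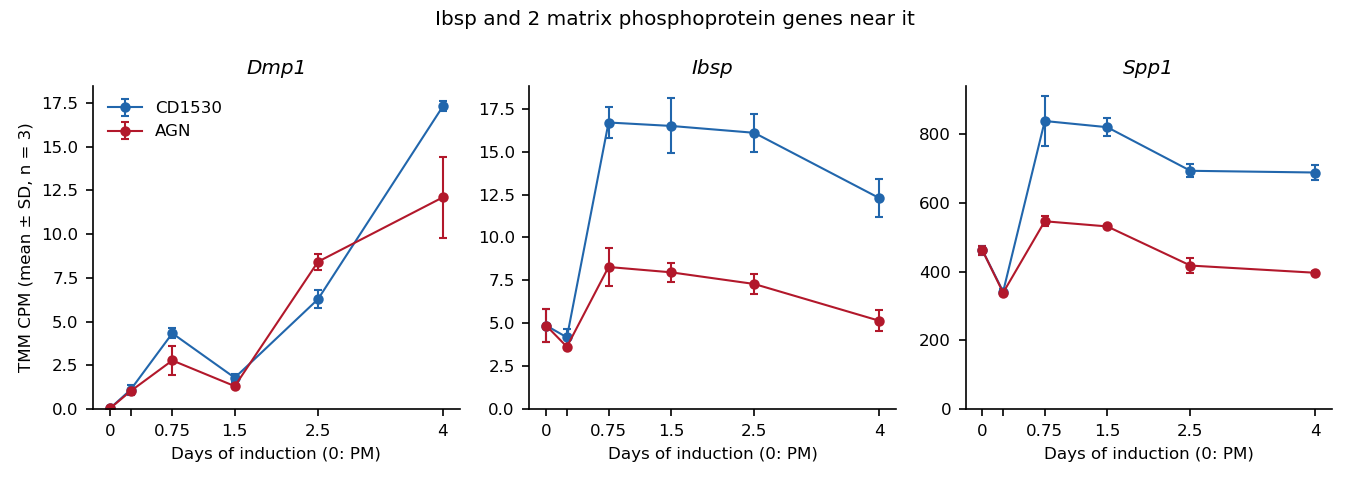
Levels of Dmp1, Ibsp and Spp1 in CPM (mean ± SD of 3 libraries) against days of induction, with PM at 0, in CD1530 (blue) and AGN (red). Ibsp and Spp1 both rise between 0.25 and 0.75 days and stay higher in CD1530, and Dmp1 reaches its highest levels at 4 days.

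In CD1530 at D10, 5 of the 7 genes were called against PM where 83.2% of all genes were. Runx2, Cbfb, Ibsp and Mef2c were higher (4 of 7, against 43.3% of all genes) and Alpl lower (1 of 7, against 39.9%). In AGN at D10, 6 of 7 were called against a background of 82%. Runx2, Runx3, Cbfb, Sp7 and Mef2c were higher (5 of 7, against 41.6%) and Alpl lower (1 of 7, against 40.4%). The largest changes from PM were those of Alpl in AGN (-5.10 ± 0.05), Mef2c in AGN (4.00 ± 0.12) and Sp7 in AGN (3.98 ± 0.28). Both comparisons use the same 3 PM libraries.

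At each step the number of genes called is given beside the share of all genes called, and shares near that background are no result about the 7 genes. From PM to D6.25, 5 of 7 genes were called in CD1530 (67.8% of all genes) and 6 of 7 in AGN (68.1%). From D6.25 to D6.75 the counts were 4 (45.9%) and 5 (43.7%). From D6.75 to D7.5 they were 3 (34.2%) and 2 (30.3%), and from D7.5 to D8.5 they were 3 (36.5%) and 3 (42.1%). From D8.5 to D10, 5 of 7 were called in CD1530 (57.3%) and 7 of 7 in AGN (59.4%). The median absolute step of the 7 genes was then 0.33 in CD1530 and 1.24 in AGN, beside 0.30 and 0.32 for all genes.

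Whether the difference between conditions itself changed was tested as an interaction. Over D6.25 to D10 it was called in 6 of 7 genes, where 48.8% of all genes were called, with adjusted p-values of 8.24e-13 for Runx2, 1.17e-05 for Cbfb, 1.91e-08 for Sp7, 1.61e-28 for Alpl, 0.00018 for Ibsp and 8.2e-08 for Mef2c. Runx3 was not called (adjusted p = 0.0594), but was without any 1 of 5 libraries, with adjusted p-values from 0.00202 to 0.0444, the lowest without AGN replicate 1 at D6.75. Between D8.5 and D10 alone, 4 of 7 were called against 26.8% of all genes. These were Runx2, Sp7 and Alpl, described above, and Runx3 (-1.10 ± 0.41, adjusted p = 0.0387), for which the call was lost when any of 8 of the 12 libraries was left out, with adjusted p-values from 0.0568 to 0.109.

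The 7 genes shared no common course. Over the 11 group means of log2 CPM, Pearson's r was 0.85 between Runx2 and Cbfb, -0.93 between Runx2 and Alpl and 0.48 between Runx2 and Sp7. That of Ibsp with the other 6 ran from -0.25 with Runx3 to 0.59 with Mef2c. The groups share the PM libraries and the order of time, and these values are descriptions. Among 13546 genes with a mean of at least 1 CPM, those most like each gene on the same scale were as follows. Runx2 was followed most closely by Kcnd3 (r = 0.989), Prrc1 (0.983) and Clstn2 (0.981). Alpl was nearest to Lpar5 (0.982), Tuba1c (0.979) and Calcoco2 (0.978), and Ibsp to Spp1 (0.962), Abcd2 (0.947) and Plau (0.932). The nearest genes of Mef2c were Clec1a (0.987), Tmem98 (0.984) and Rnf122 (0.983), those of Cbfb were Tspan12 (0.983), Mid2 (0.976) and Ier5 (0.974), and those of Sp7 were Sel1l3 (0.941), Gng2 (0.939) and Iqce (0.926). For Runx3 they were Mrpl27 (0.958), Ssr4 (0.870) and Tmem256 (0.867), of which Mrpl27 stood at rank 290 with r = 0.565 when libraries were scaled by their totals only. Of the 21 genes named, 12 were among the 3 nearest with that scaling, and only Spp1 and Abcd2 were among the 3 nearest by Spearman's correlation. Kcnd3, Prrc1 and Clstn2 then stood at ranks 991, 623 and 141 for Runx2.

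Other genes of the same pathways were examined in 6 lists at D10. The counts of each list between the conditions stand beside 22.7% of all genes called higher in CD1530 and 24% called lower. Of 18 regulators and partners of Runx proteins, Runx1 included, 6 were higher in CD1530, 9 lower and 3 not called, with a median log2 fold change of -0.14 beside -0.019 for all genes. The largest positive differences were in weakly expressed genes, with levels given for CD1530 and then AGN. They were Hand2, a limb and heart factor that binds Runx2 (2.37 ± 0.1 and 0.389 ± 0.29 CPM, 2.60 ± 0.38), and the corepressor Cbfa2t3 (5.37 ± 0.83 and 3.15 ± 0.56 CPM, 0.77 ± 0.16). The largest negative ones were those of its relative Runx1t1 (-0.97 ± 0.09) and of the Groucho corepressor Tle1 (-0.87 ± 0.04). Among the class IIa histone deacetylases, which bind Runx2 and Mef2 proteins, Hdac4, Hdac5, Hdac7 and Hdac9 were all lower in CD1530, with log2 fold changes from -0.50 to -0.19. Against PM, 15 of the 18 were higher at D10 in CD1530, where 43.3% of all genes were, and 15 in AGN, where 41.6% of all genes were.

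Of 10 transcription factors of osteoblasts, 4 were higher in CD1530, 4 lower and 2 not called, with a median of 0.64. Dlx5 and Dlx6, homeobox factors encoded side by side and known to act on Runx2 and Sp7, were the lowest. Dlx5 stood at 5.03 ± 0.55 CPM in CD1530 and 58.8 ± 0.86 CPM in AGN at D10 (-3.54 ± 0.15, adjusted p = 2.07e-21), and had differed at D8.5 as well (-1.63 ± 0.16). Dlx6 was at 0.138 ± 0.14 and 3.25 ± 0.77 CPM at D10 (-4.44 ± 0.45), with 1 to 6 counts per library in CD1530 and 42 to 65 in AGN. Every gene in the deposited counts had at least 0.611 CPM in 3 libraries. Dlx6 reached that level in AGN at D10 alone, with at most 0.424 CPM in any library elsewhere. Its place among the genes tested thus rests on the group where it was high. Zbtb16, a zinc finger factor of early osteoblasts, was higher in CD1530, with 5.38 ± 0.60 and 0.266 ± 0.19 CPM (4.32 ± 0.35). So was the homeobox gene Barx1, with 3.3 ± 0.27 CPM in CD1530 and 0.831 ± 0.17 CPM in AGN (1.98 ± 0.29). Of the other 3 Mef2 genes, Mef2a was higher in CD1530 (0.31 ± 0.06), Mef2d lower (-0.25 ± 0.05) and Mef2b not called, with a median of -0.25.

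The genes of bone matrix and mineral were also divided. Of 16 listed matrix genes and osteoblast products, 9 were tested, of which 4 were higher in CD1530, 2 lower and 3 not called, with a median of 0.51. Sost, the Wnt inhibitor of osteocytes, was counted 45 to 50 times per library in CD1530 and 1 to 3 times in AGN at D10, and the ratio of pooled CPM was 21.7 (95% exact interval 9.72 to 60.1, counting error only). Tnfrsf11b (osteoprotegerin) was higher in CD1530 (0.96 ± 0.11). Col1a2 (-0.61 ± 0.07) and Sparc (-0.60 ± 0.04), which tendon and cartilage also express, were lower. Of 9 gene symbols listed for mineral and phosphate handling, 7 were present and tested. Of these, 4 were higher in CD1530 and 1 lower, with a median of 0.23. The sphingomyelinase Smpd3 was higher (2.77 ± 0.39), at low levels of 3.36 ± 0.57 CPM in CD1530 and 0.486 ± 0.12 CPM in AGN. Enpp1, which makes pyrophosphate, was also higher (0.66 ± 0.06), and Ank, which exports it, was lower (-0.34 ± 0.04). Of 6 genes of hypertrophic cartilage, 3 were higher in CD1530 and 1 lower, with a median of 0.16. Col10a1 was at 3.47 ± 0.42 and 1.48 ± 0.095 CPM (1.23 ± 0.25) and Vegfa was slightly higher (0.17 ± 0.05), while Mmp13, a collagenase, was lower (-1.65 ± 0.22). No list differed in a single direction. The same lists were set against PM, beside the shares of all genes called higher (43.3% in CD1530, 41.6% in AGN) or lower (39.9% and 40.4%). Of the 10 osteoblast factors, 4 were higher and 3 lower in CD1530, and 4 higher and 5 lower in AGN. Of the 3 Mef2 genes, 2 were higher and 1 lower in CD1530, and 2 were higher in AGN. Of the 9 matrix genes, 7 were higher and 2 lower in CD1530, and 5 higher and 3 lower in AGN. Of the 7 mineral genes, 5 were higher and 1 lower in CD1530, and 4 higher and 2 lower in AGN. Of the 6 genes of hypertrophic cartilage, 4 were higher and 1 lower in each condition.

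**Figure D5:**
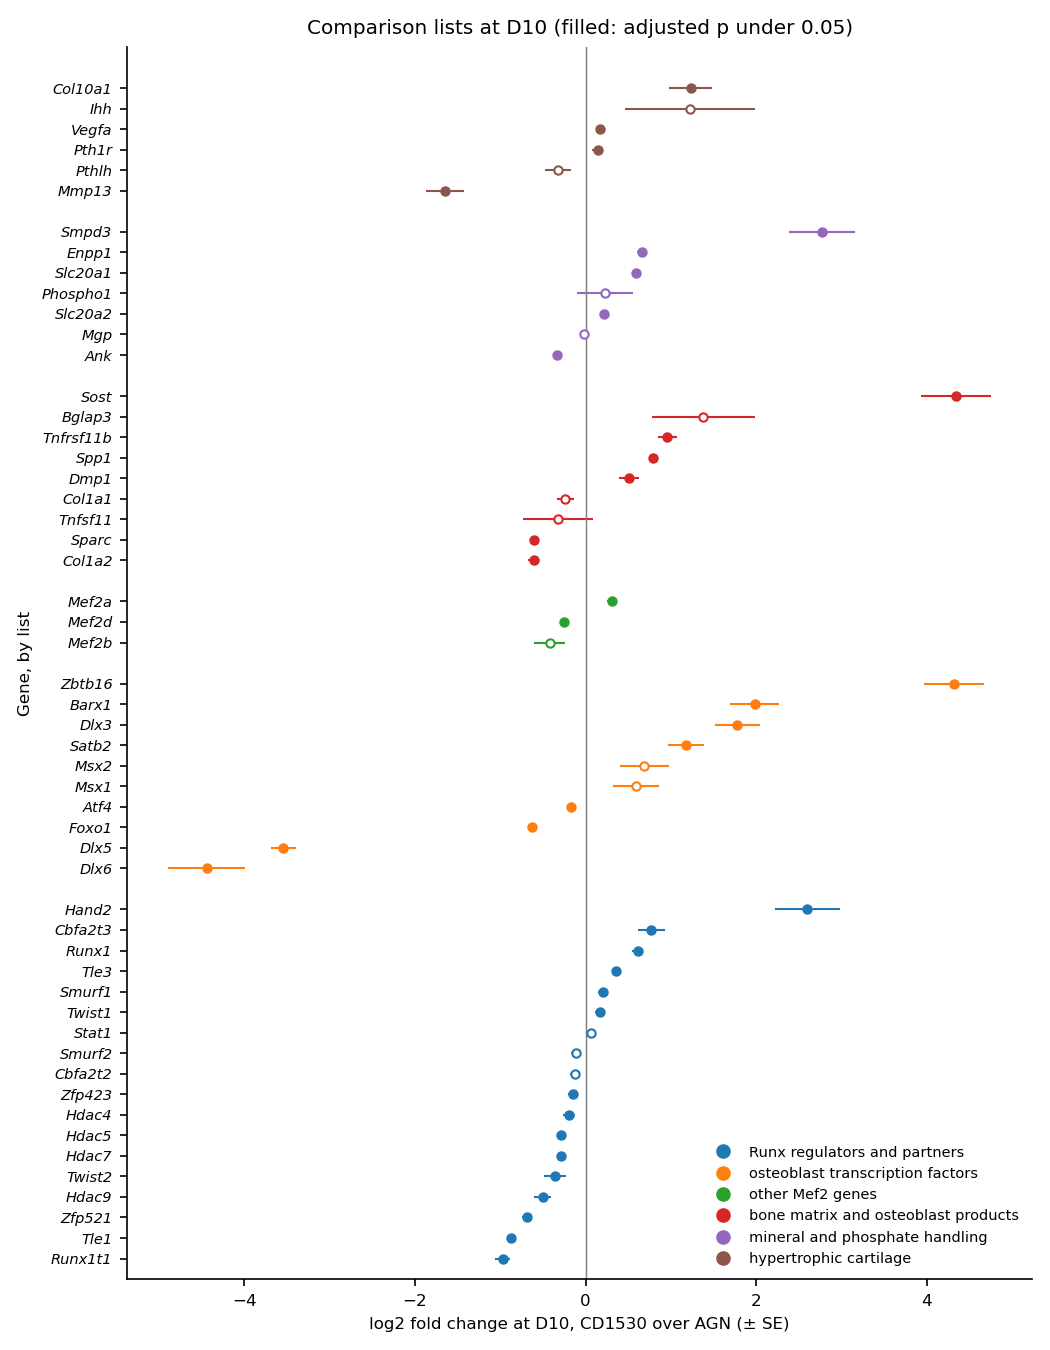
Log2 fold change at D10 of CD1530 over AGN for each tested gene of the 6 comparison lists, with bars of 1 SE and filled points called at an adjusted p under 0.05. Dlx5 and Dlx6 lie at -3.54 and -4.44, Zbtb16 lies at 4.32, and every list has genes on both sides of 0. Sost, Bglap3 and Ihh have at most 3 counts in each AGN library, and their fitted values depend on the prior count.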

How the data were processed

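The authors aligned total RNA reads to GRCm38 with STAR, counted them per gene with featureCounts and deposited raw counts for the 33 libraries. Which annotation was counted, whether strand was used and how multimapping reads were treated is not given in the sources used here. The libraries were grouped by their labels. Counts were fitted with edgeR 4.0.16 (R 4.3.3) with TMM scaling, a mean for each of the 11 groups and a robust quasi-likelihood F test. In all, 19 contrasts were tested, each adjusted over 17120 genes by the Benjamini-Hochberg method. The filter on low counts removed 0 genes. Each of the 17120 genes already had at least 0.611 CPM, scaled by library totals, in 3 libraries. How these genes had been selected is not given in the sources used here. Why Phex and some genes of the lists are absent was not tested, and every share of all genes is over these 17120. The SE is the absolute log2 fold change divided by the square root of F. DESeq2 1.42.0, other scalings and filters, a replicate block and each library left out were the alternatives. The members, gene lists and marker lists were chosen with earlier results of these data known. In each list, up to 2 called genes with the largest difference in either direction were named, and the Hdac genes, Runx1 and the neighbours of Ibsp were described after their values were seen. Replicate numbers did not pair the samples.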

Additional observations from a re-analysis of the deposited data

Results flagged for a closer look

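The difference between CD1530 and AGN itself changed with time in 6 of the 7 genes, by edgeR's interaction test over D6.25 to D10. The adjusted p-values were 8.24e-13 for Runx2, 1.17e-05 for Cbfb, 1.91e-08 for Sp7, 1.61e-28 for Alpl, 0.00018 for Ibsp and 8.2e-08 for Mef2c, beside 48.8% of all genes called. In Mef2c the difference was in opposite directions at D7.5 and D8.5, while in the other 5 genes the called differences kept their direction. For the step from D8.5 to D10 alone, the interaction was called for Runx2 (log2 difference -1.18, adjusted p = 9.1e-08), Runx3 (-1.10, adjusted p = 0.0387), Sp7 (-1.55, adjusted p = 0.00546) and Alpl (0.33, adjusted p = 0.000843). The Runx3 call rests on 20 to 48 counts per library and was lost when any 1 of 8 libraries was left out.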

How the results depend on the processing

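Of 2069 recomputed values for single genes, steps included, 2009 kept their direction and side of the threshold, 17 lost and 11 gained a call, and 32 changed sign. None of 296 recomputed member counts moved by over 1.5 times. None of the sign changes was in a difference called with or without the alternative. For Runx2 at D6.75 the log2 fold change was 0.01 with library size only and with only the compared groups, and from -0.09 to 0.14 with a library left out. For Cbfb at D7.5 it was -0.00 to 0.03 with a library left out, the former without CD1530 replicate 3. For Ibsp in AGN at D10 against PM it was -0.07 with library size only, and from -0.02 to 0.23 with a library left out. Steps that changed sign with a library left out in CD1530 were those of Runx3 from PM to D6.25 (-0.12 to 0.16), Alpl and Ibsp from D6.75 to D7.5 (-0.01 to 0.05 and -0.10 to 0.04), Cbfb and Ibsp from D7.5 to D8.5 (-0.00 to 0.03 and -0.09 to 0.05) and Sp7 from D8.5 to D10 (-0.36 to 0.04). In AGN they were those of Runx2 and Runx3 from D6.25 to D6.75 (-0.00 to 0.11 and -0.85 to 0.02), Runx2, Runx3 and Ibsp from D6.75 to D7.5 (-0.09 to 0.09, -0.72 to 0.22 and -0.13 to 0.05) and Mef2c from D7.5 to D8.5 (-0.01 to 0.04). With library size only, the step from D7.5 to D8.5 was -0.03 for Cbfb in CD1530 and -0.07 for Mef2c in AGN, and that of Runx2 in AGN from D6.75 to D7.5 was 0.00, as with only the compared groups. With library size only, the rise of Cbfb in CD1530 from D8.5 to D10 was 0.05 (adjusted p = 0.169), where the median of all genes went from -0.035 to -0.127. That median went from -0.013 to -0.113 for the same step in AGN and from -0.002 to -0.152 for AGN at D10 against PM. The fall of Ibsp from PM to D6.25 in AGN was not called without PM replicate 2 (adjusted p = 0.112). The rise of Mef2c in CD1530 from D6.75 to D7.5 was not called with only the compared groups (adjusted p = 0.124), or without any of 3 libraries (0.05 to 0.143). The step from D6.25 to D6.75 became called for Runx2 in CD1530 without CD1530 replicate 3 at D6.25 (adjusted p = 0.0467) or replicate 1 at D6.75 (0.00743), and for Runx3 in AGN without AGN replicate 1 at D6.75 (0.0308). Same-numbered samples correlated at -0.12 to 0.04 over 15 pairs, so the numbers do not pair them, and the fit with a replicate block changed no call of a member (7 of 7 at D10). Without CD1530 replicate 1 at D6.75, which stood apart from its fellows, 17.5% of all genes were called between the conditions at D6.75, beside 18% with it. In the interaction over D6.25 to D10 the share was 55.2% without it, beside 48.8%. With only the compared groups, 7.42% of all genes were called at D6.75. Sp7, Alpl and Ibsp were called at D6.75 in every alternative. The causes were not tested. Runx3 and Sp7, the genes with the fewest counts, had the widest intervals at D10.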
